A study of Mus musculus with 8 samples.

Results

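The D and E cyclins (Ccnd1, Ccnd2, Ccnd3, Ccne1 and Ccne2), the kinases they activate (Cdk2, Cdk4 and Cdk6) and the pocket proteins Rb1 and Rbl2 were followed in hematopoietic stem cells of mice given granulocyte colony-stimulating factor (G-CSF). The genes were chosen by symbol, and the probe sets assigned to exactly 1 of these symbols gave 10 of the 19938 genes tested, with 1 probe set each. The treated group received G-CSF under the skin at 125 mcg per kg 2 times a day, and the control group received saline (PBS). Both were sampled at 36 h, with 4 arrays each. All 8 samples were bone marrow cells sorted as KSL SLAM cells, that is, negative for lineage markers, CD48 and CD41 and positive for c-Kit, Sca-1 and CD150, and each sample pooled 5 to 10 mice. Strain, age and sex of the mice are not given in the labels. The labels call the samples independent, so the spread between arrays includes that between pools of animals, along with that of sorting and array processing.

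D cyclins are made in response to growth signals and bind Cdk4 and Cdk6, and these complexes begin the phosphorylation of the retinoblastoma protein. E cyclins with Cdk2 complete it, which frees E2F transcription factors to switch on genes of DNA synthesis. The pocket proteins hold E2F factors in check in resting cells. Most stem cells of adult marrow rest outside the cycle and enter it when blood has to be made.

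No gene of the group passed the test. At an adjusted p under 0.05 (limma, adjusted over all genes), 0 of the 10 were called, against 0.0953% of all genes, and at an unadjusted p under 0.05 there were 3 of 10, against 9.01% of all genes (6.07% with more transcript after G-CSF and 2.94% with less). These 3 were the kinases Cdk4 and Cdk6, with more transcript after G-CSF, and cyclin D1, with less. The log2 fold change was 0.99 ± 0.43 SE for Cdk4, 0.71 ± 0.25 SE for Cdk6 and -0.64 ± 0.24 SE for Ccnd1, and the limma adjusted p lay between 0.451 and 0.943 over the 10 genes. The median log2 fold change of the 10 was 0.08, with 6 positive and 4 negative, against -0.07 over all genes, and after quantile normalization it was -0.035 with 5 positive, Rb1 having turned. Without PBS replicate 3 there were again 3 at an unadjusted p under 0.05, with Ccnd2 in place of Cdk4 (8.76% of all genes), and without PBS replicate 1 they were Cdk4, Cdk6 and cyclin E2 (11.0% of all genes). The groups overlapped for each of the 10, where they did not overlap for 6.15% of all genes. In bulk RNA of this kind, a different mix of cells and a different amount of RNA per cell cannot be told apart.

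**Figure D1:**
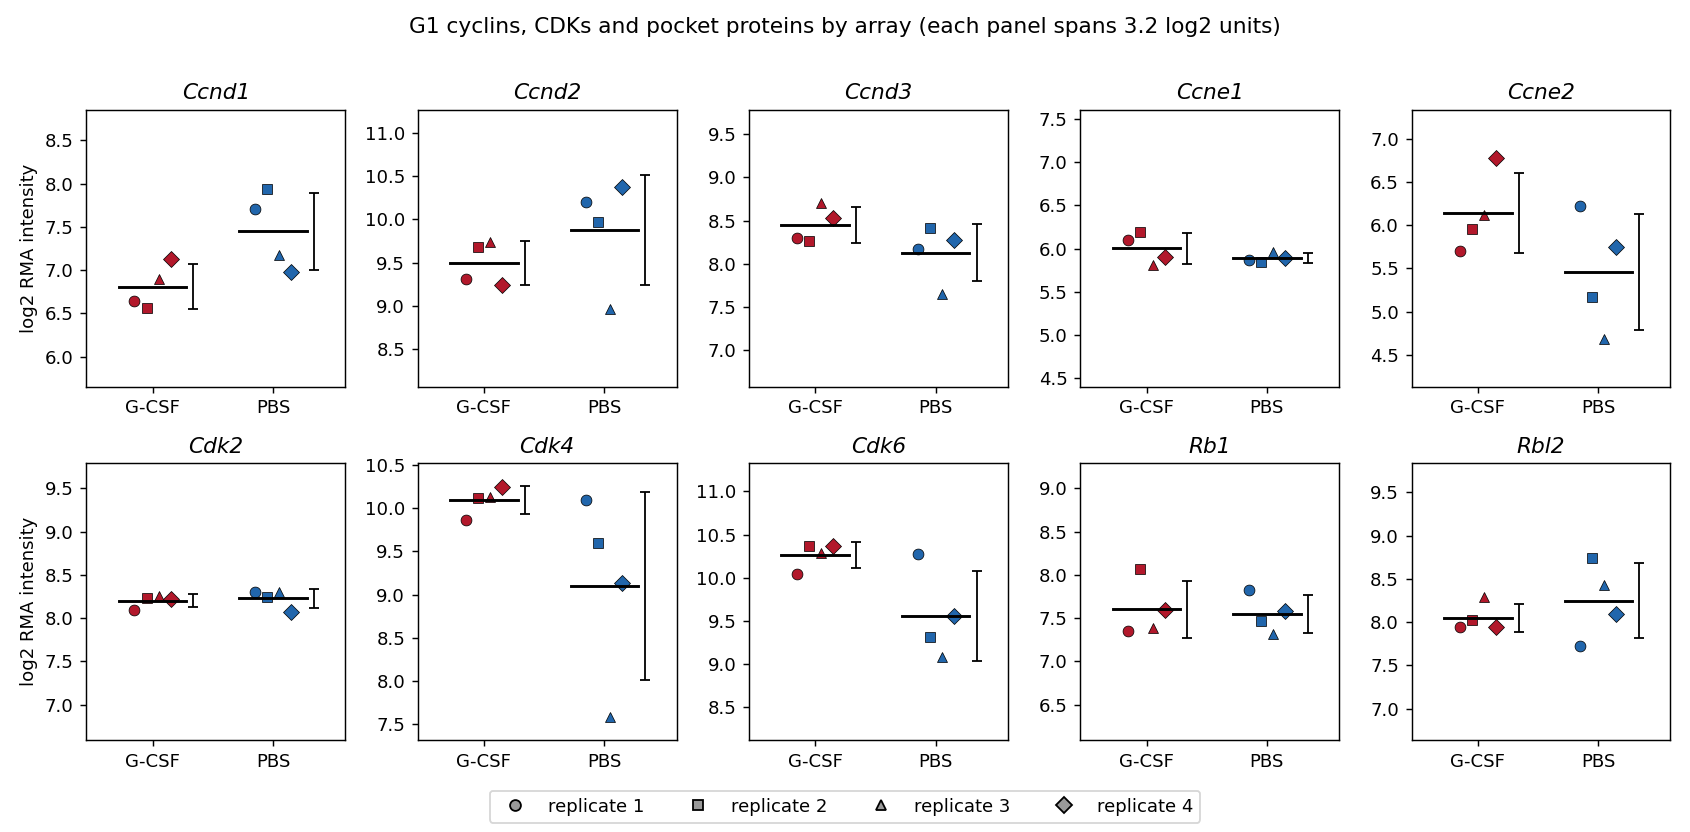
Log2 RMA intensity (vertical axes, each spanning the same number of log2 units) of the 10 genes in G-CSF arrays (left of each panel) and PBS arrays (right); marker shapes give the replicate number, lines the means and bars the SD of 4 arrays. Cdk4 and Cdk6 had SDs of 0.16 and 0.15 after G-CSF and 1.08 and 0.52 after PBS, and for every gene the groups overlap. A larger SD after PBS was common, in 8 of the 10 genes and 73.6% of all genes. Without PBS replicate 3 it was found in 6 of the 10 and 47.4% of all genes, and the PBS SDs of Cdk4 and Cdk6 were 0.48 and 0.50.

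PBS replicates 1 and 3 differed from the other PBS arrays, in unlike ways. Among the 7 arrays other than PBS replicate 3, PBS replicate 1 included, correlations over genes were 0.96 to 0.98. PBS replicate 3 correlated with them at 0.88 to 0.90 and had a compressed range. Its interquartile range over genes was 1.68, against 2.42 to 2.80 in the other 7 arrays. Among the 2014 genes with a mean log2 intensity between 8 and 10 it lay below the other PBS arrays by a median gap of -0.45, whereas among the 10587 genes under 6 it lay above them by 0.46. Among the 10 genes the gap was largest for Cdk4 (-2.02), Ccnd2 (-1.22) and Ccne2 (-1.03). Ccne2 was dim, at percentile 49.2 of mean intensity and under 6, so its gap ran against the median gap of such genes. PBS replicate 1 had the highest mean of all 8 arrays for monocyte markers (7.69, against 6.49 to 7.60 in the others), erythroid markers (6.83, against 5.76 to 6.45) and megakaryocyte markers (8.015, against 6.38 to 7.58), and of the PBS arrays it stood nearest to the G-CSF arrays in its neutrophil markers. The 12 such markers averaged 11.04, 11.06, 8.95 and 9.46 in the G-CSF arrays in replicate order, against 8.70 in PBS replicate 1 and 7.59 to 7.91 in the other PBS arrays. The median of the 12 log2 fold changes was 1.99 and each was positive, where 41.7% of all genes were. Of the 12, 7 had each G-CSF value above each PBS value, against 3.37% of all genes, and 0 passed the adjusted test (limma), while 12 were at an unadjusted p under 0.05. Monocyte markers had a median log2 fold change of 0.40, which was 0.06 without PBS replicate 3 and 0.86 without PBS replicate 1. B cell, T cell, erythroid and megakaryocyte markers had medians of -0.23, -0.25, -0.27 and -0.28, and without PBS replicate 3 the T cell median was -0.07. Without PBS replicate 1 the T cell, erythroid and megakaryocyte medians were -0.13, -0.09 and -0.18. None of these markers passed the adjusted test (limma), and 2 monocyte and 1 B cell marker were at an unadjusted p under 0.05. The part of these cell types and of the neutrophil markers in the results below was not tested. The covariate fit at the end cannot separate neutrophil markers from treatment, since their mean was higher in every G-CSF array than in every PBS array. Of the genes behind the sort, Kit (c-Kit) had log2 intensities of 10.24 to 10.49 after G-CSF and 10.45 to 10.94 after PBS, and Slamf1 (CD150) had 6.05 to 7.16 after G-CSF and 5.94 to 7.24 after PBS. Of those sorted against, Cd48 had 7.24 to 8.95 after G-CSF and 6.66 to 7.57 after PBS, and Itga2b (CD41) had 7.19 to 7.74 after G-CSF and 7.06 to 7.72 after PBS. Other stem and progenitor genes had different directions. Cd34, which in adult mice is low on long-term stem cells and higher on multipotent progenitors, had 9.84, 10.02, 10.67 and 10.98 in the G-CSF arrays, against 9.27, 9.80, 8.68 and 10.27 in the PBS arrays (log2 fold change 0.87 ± 0.35 SE, limma adjusted p = 0.517). Procr, the stem cell surface protein EPCR, had a log2 fold change of 0.54 ± 0.37 SE, and Kit, Mecom and Hlf had -0.35 ± 0.17 SE, -0.34 ± 0.23 SE and -0.11 ± 0.23 SE. Without detection calls, presence or absence of a transcript could not be read from these values.

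The promoters of the kinases are shown because Cdk4 and Cdk6 had the 2 highest log2 fold changes of the group and Cdk2 the one closest to 0. Promoter sequences from RefSeq (GRCm38.p6), covering 250 bases before to 50 bases after a start site, were matched for 6 of the 10 genes. Ccnd1, Ccnd2, Ccne2 and Rb1 had no entry. The words searched on both strands were the E2F words TTTGGCGC, TTTCCCGC, TTTGCCGC and TTTCGCGC, and the E-box CACGTG, the core letters bound by MYC with its partner MAX. The E-box was added after the sequences had been seen. Capitals mark these words, on either strand, in the sequences below, which run 5′ to 3′ along the gene's strand.
Cdk4, chr10:127063285-127063584, plus strand: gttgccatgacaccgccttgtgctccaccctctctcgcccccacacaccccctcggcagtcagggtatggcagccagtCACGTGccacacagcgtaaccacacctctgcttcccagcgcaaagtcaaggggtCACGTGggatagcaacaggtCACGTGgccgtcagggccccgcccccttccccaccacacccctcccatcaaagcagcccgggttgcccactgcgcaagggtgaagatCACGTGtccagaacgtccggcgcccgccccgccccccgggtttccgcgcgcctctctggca
Cdk6, chr5:3343643-3343942, plus strand: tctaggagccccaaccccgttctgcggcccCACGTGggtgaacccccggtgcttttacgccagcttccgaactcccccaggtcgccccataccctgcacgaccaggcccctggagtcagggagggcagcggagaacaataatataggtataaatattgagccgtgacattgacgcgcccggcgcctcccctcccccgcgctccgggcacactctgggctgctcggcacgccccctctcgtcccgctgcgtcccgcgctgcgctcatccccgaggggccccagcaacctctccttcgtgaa
Cdk2, chr10:128705002-128705301, minus strand: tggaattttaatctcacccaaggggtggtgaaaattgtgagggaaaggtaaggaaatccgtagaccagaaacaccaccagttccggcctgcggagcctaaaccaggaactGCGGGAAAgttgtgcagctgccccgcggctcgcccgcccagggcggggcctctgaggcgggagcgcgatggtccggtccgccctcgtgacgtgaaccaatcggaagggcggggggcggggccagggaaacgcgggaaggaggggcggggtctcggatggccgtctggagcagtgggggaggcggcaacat

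The Cdk4 window held 4 copies of CACGTG, from 172 to 6 bases before the start site, and the Cdk6 window held 1, beginning 220 bases before it. Of 32851 RefSeq promoter windows of the same length, 7.15% held at least 1 copy and 0.0244% (8 windows) at least 4. The word was chosen after this window had been read and the count of 4 is its own, so these shares describe it and add no support. Cdk4 is known from other work as a target of MYC. The Cdk2 window held 1 E2F word, TTTCCCGC on the opposite strand, ending 133 bases before the start site, and 2.26% of all windows held such a word. The windows of Ccnd3, Ccne1 and Rbl2 held neither. No E2F word or E-box overlapped another. These matches describe letters and do not show that a factor was bound.

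Cyclin D1, which links mitogen signals to Cdk4 and Cdk6, had log2 intensities of 6.64, 6.57, 6.90 and 7.13 in the G-CSF arrays, against 7.70, 7.94, 7.18 and 6.98 in the PBS arrays, in replicate order as for the genes that follow. PBS replicate 4 lay within the G-CSF values, and the other PBS arrays lay above all of them. The mean was 6.81 ± 0.26 after G-CSF and 7.45 ± 0.45 after PBS (SD, n = 4 each), a PBS level 1.56 times that after G-CSF (95% interval of the log2 fold change -1.17 to -0.12, limma adjusted p = 0.482). After quantile normalization the log2 fold change was -0.82 and the groups no longer overlapped, although only narrowly. The highest G-CSF value was then 6.96 and the lowest PBS value 6.98. Under that setting 3.03% of all genes had each G-CSF value below each PBS value, and Ccnd1 was the only gene of the 10 among them.

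Cyclin D2, the D cyclin whose transcription is driven by cytokine receptors through STAT5 in lymphoid and myeloid cells, had 9.31, 9.68, 9.74 and 9.24 in the G-CSF arrays, against 10.20, 9.97, 8.96 and 10.37 in the PBS arrays. Here the 3 other PBS arrays lay above every G-CSF array and PBS replicate 3 lay below every one. With all arrays the log2 fold change was -0.39 ± 0.29 SE (limma adjusted p = 0.627). Leaving out 1 array moved it in both directions, to -0.22 ± 0.30 SE without PBS replicate 4 and -0.28 ± 0.32 SE without PBS replicate 1. Without PBS replicate 3 it was -0.69 ± 0.18 SE (limma adjusted p = 0.279). Ccnd2 was then the only gene of the 10 with each G-CSF value below each PBS value, against 3.94% of all genes. This separation follows from leaving out PBS replicate 3, the PBS array that lay below the G-CSF values, and adds no support. The PBS spread was 0.63 with that array and 0.20 without it (SD).

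Cyclin D3, which mouse granulocyte, lymphocyte and erythroid precursors need to multiply, had a positive difference. It had 8.30, 8.26, 8.71 and 8.53 in the G-CSF arrays, against 8.18, 8.42, 7.66 and 8.27 in the PBS arrays. Again PBS replicate 3 was the lowest of all, and the values of the remaining arrays interleaved. The log2 fold change was 0.32 ± 0.20 SE (95% interval -0.13 to 0.77) and 0.16 ± 0.16 SE without PBS replicate 3.

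Whether the D cyclins differed from each other in their response was tested as the log2 difference between 2 genes within each array, which does not depend on how an array is centred. It was compared by a 2-sided exact permutation test between the groups, over 8 pairs of related genes, with Benjamini-Hochberg adjustment over the 8. With 4 against 4 arrays the smallest possible p is 0.0286. Ccnd1 minus Ccnd3 was -1.81 to -1.40 in the G-CSF arrays and -1.29 to -0.47 in the PBS arrays, without overlap. The difference in change, Ccnd1 minus Ccnd3, was -0.96 (exact p = 0.0286, adjusted p = 0.114), and it was -1.17 to -0.89 when each array was left out in turn. This was the only pair at the smallest p, and it did not pass the adjustment. Over 8 pairs a single pair at that p cannot pass, so the adjusted test could not decide on this pair. Ccnd2 against Ccnd3 gave a difference in change of -0.70 (exact p = 0.0571, adjusted p = 0.114). Ccnd1 against Ccnd2 gave -0.26 (exact p = 0.543), and -0.58 to -0.04 with each array left out in turn. PBS replicate 3, with the lowest Ccnd2 and Ccnd3 of all arrays, was not apart in Ccnd1 minus Ccnd3, which was -0.47 there and in PBS replicate 1, -0.48 in PBS replicate 2 and -1.29 in PBS replicate 4.

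**Figure D2:**
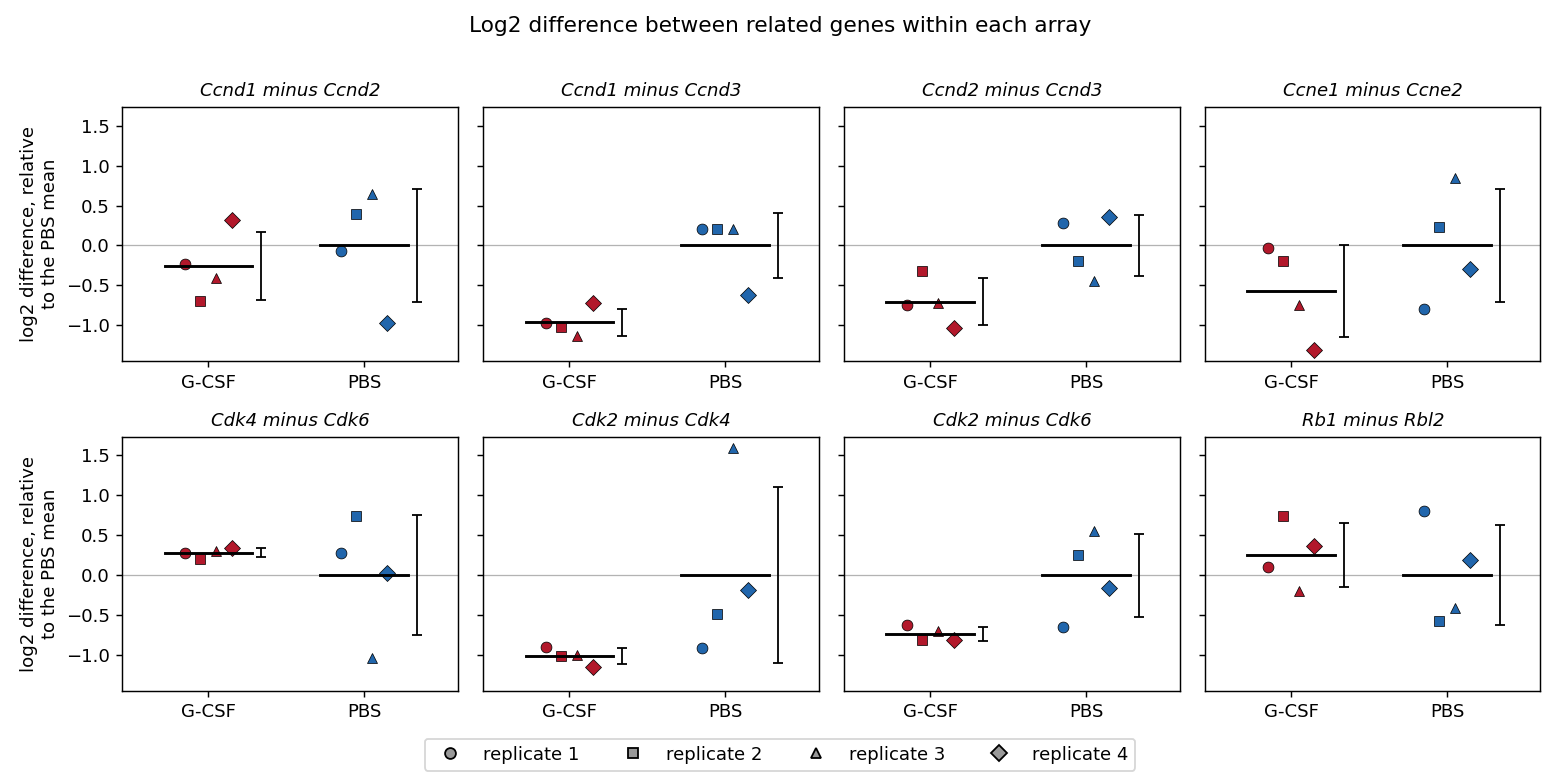
Log2 difference between related genes within each array, less the PBS mean of that difference (vertical axis, log2 units), in G-CSF arrays (left of each panel) and PBS arrays (right); marker shapes give the replicate number, lines the means and bars the SD of 4 arrays. Ccnd1 minus Ccnd3 is the pair whose groups do not overlap, and Cdk4 minus Cdk6 has an SD of 0.05 in the G-CSF arrays and 0.75 in the PBS arrays. PBS replicate 3 has the lowest Cdk4 minus Cdk6 of all arrays.

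Cdk6, a kinase of D cyclins that mouse stem cells need to be activated from rest, had 10.04, 10.37, 10.29 and 10.37 in the G-CSF arrays, against 10.28, 9.31, 9.08 and 9.56 in the PBS arrays. PBS replicate 1 lay among the G-CSF arrays and the other PBS arrays lay below all of them. The mean was 10.27 ± 0.15 after G-CSF and 9.56 ± 0.52 after PBS (SD, n = 4 each), or 1.64-fold higher after G-CSF (95% interval of the log2 fold change 0.17 to 1.25, limma adjusted p = 0.451). Without PBS replicate 1 the log2 fold change was 0.95 ± 0.20 SE (limma adjusted p = 0.122), the lowest adjusted p of any gene of the group in any of the 19 settings tried, and without PBS replicate 3 it was 0.55 ± 0.22 SE.

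Cdk4, the partner of D cyclins in most tissues, had 9.87, 10.12, 10.13 and 10.25 in the G-CSF arrays, against 10.09, 9.60, 7.59 and 9.13 in the PBS arrays. PBS replicate 1 lay among the G-CSF arrays, the other PBS arrays lay below all of them and PBS replicate 3 was far the lowest. The mean of Cdk4 was 10.09 ± 0.16 after G-CSF and 9.10 ± 1.08 after PBS (SD, n = 4 each), or 1.99-fold higher after G-CSF (95% interval of the log2 fold change 0.05 to 1.93, limma adjusted p = 0.540). PBS replicate 3 decided much of that size. Without it the log2 fold change was 0.48 ± 0.22 SE (limma adjusted p = 0.580), and without PBS replicate 1 it was 1.32 ± 0.40 SE (limma adjusted p = 0.292). Cdk4 and Cdk6 were the genes of the 10 whose G-CSF values all lay above the PBS values without PBS replicate 1, against 6.22% of all genes. This separation follows from leaving out PBS replicate 1, the PBS array that lay among the G-CSF values, and adds no support. The log2 difference between Cdk4 and Cdk6 stayed within -0.25 to -0.12 in the G-CSF arrays and ran from -1.49 to 0.29 in the PBS arrays. The lowest of these, -1.49, was PBS replicate 3, and the other PBS arrays ran from -0.43 to 0.29. A larger SD after PBS was found for 73.6% of all genes.

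Cdk2, the kinase of E cyclins, was even across all arrays, with 8.09 to 8.26 after G-CSF and 8.07 to 8.31 after PBS. Its log2 fold change was -0.03 ± 0.15 SE, and the 95% interval of -0.36 to 0.31 leaves room for a change in either direction. Set against the D cyclin kinases within arrays, its difference in change was -1.02 from Cdk4 and -0.74 from Cdk6 (exact p = 0.0571 and adjusted p = 0.114 for each). Without PBS replicate 3 the first of these was -0.49 and the other -0.55. Cdk4 and Cdk6 did not differ in change beyond their spread (0.28, exact p = 0.629), and without PBS replicate 3 that difference was -0.07.

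**Figure D3:**
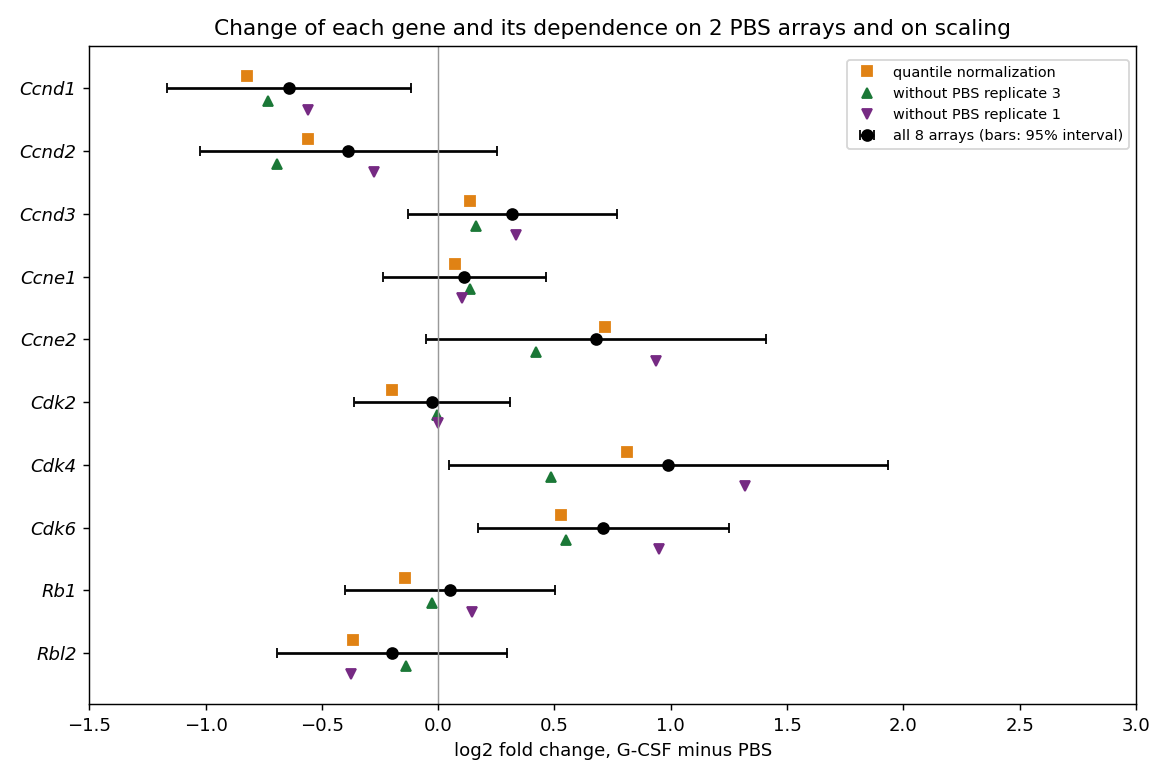
Log2 fold change of each of the 10 genes, G-CSF minus PBS (horizontal axis), with all arrays and its 95% interval (black), after quantile normalization (squares), without PBS replicate 3 (upward triangles) and without PBS replicate 1 (downward triangles). The intervals of Ccnd1, Cdk4 and Cdk6 lie off 0 before adjustment, Cdk4 moves between 0.48 and 1.32 with the PBS array left out, and Cdk2 is near 0 apart from -0.20 after quantile normalization.

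Cyclin E2 and cyclin E1 are the partners of Cdk2 at entry into S phase and are both made under E2F. Ccne2 had 5.70, 5.95, 6.12 and 6.78 in the G-CSF arrays, against 6.23, 5.17, 4.69 and 5.75 in the PBS arrays. The highest value was in G-CSF replicate 4 and the lowest in PBS replicate 3, with overlap between. Its log2 fold change was 0.68 ± 0.33 SE (95% interval -0.05 to 1.41, limma adjusted p = 0.558), 0.93 without PBS replicate 1 and 0.42 without PBS replicate 3. Ccne1 lay between 5.81 and 6.20 after G-CSF and between 5.84 and 5.97 after PBS, and its log2 fold change was 0.11 ± 0.16 SE, with 0.05 to 0.18 when each array was left out in turn. The difference in change of Ccne1 from Ccne2 was -0.57 (exact p = 0.286, adjusted p = 0.457), and -0.29 without PBS replicate 3.

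Differences in the pocket proteins were not detectable at this spread. Rb1, the retinoblastoma protein itself, lay between 7.35 and 8.06 after G-CSF and between 7.32 and 7.83 after PBS (log2 fold change 0.05 ± 0.20 SE, 95% interval -0.40 to 0.50, and -0.14 after quantile normalization), and with each array left out it ran from -0.10 to 0.14. Rbl2, known as p130 and the pocket protein that prevails in resting cells, lay between 7.94 and 8.29 after G-CSF and between 7.73 and 8.74 after PBS (log2 fold change -0.20 ± 0.22 SE, 95% interval -0.69 to 0.29). That value was -0.03 without PBS replicate 2 and -0.37 without PBS replicate 1. PBS replicate 1 had the lowest Rbl2 value of all arrays, and it was also the PBS array with the highest Cdk4, Cdk6 and Ccne2. The difference in change of Rb1 from Rbl2 was 0.25 (exact p = 0.514), and 0.06 to 0.52 with each array left out.

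The rest of the pathway was read from 5 lists, none of which held a gene past the adjusted test in either direction. Of 19 genes known as E2F targets, mostly of DNA synthesis, 19 were positive, against 41.7% of all genes, and the median log2 fold change was 0.42, against -0.07 over all genes. At an unadjusted p under 0.05 there were 4 of the 19, all with more transcript after G-CSF, against 6.07% of all genes in that direction. After quantile normalization 16 were positive with a median of 0.245, against 8811 of all 19938 genes. Without PBS replicate 3 there were 18 with a median of 0.27, against 9352 of all genes. All genes together are a dimmer background. The 19 lay at percentile 54.6 of mean intensity or above, where PBS replicate 3 was low. The ribonucleotide reductase subunits Rrm2 and Rrm1 had 0.66 ± 0.20 SE and 0.75 ± 0.26 SE, and the mitotic kinase Cdk1 had 0.97 ± 0.34 SE (limma adjusted p = 0.357, 0.453 and 0.453). The list averaged 7.83, 8.02, 8.20 and 8.50 in the G-CSF arrays, against 7.95, 7.84, 7.40 and 7.60 in the PBS arrays, so PBS replicates 1 and 2 lay above the lowest G-CSF array. G-CSF replicate 4 had the highest mean of this list and the highest Ccne2, Cdk4 and Ccnd1 of the G-CSF arrays. It also had the highest Cd34 and Cd48 of them (Cd48 8.95, against 7.24 to 7.85 in the other G-CSF arrays). Over the 4 G-CSF arrays Cd34 ran in the same order as the mean of the list. In the PBS arrays the orders differed. Cd34 was highest there in PBS replicate 4 (10.27), and the mean of the list in PBS replicate 1 (7.95). The part of progenitor content in these values was not tested.

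The list of E2F factors, their DP partners and the pocket protein Rbl1 had 10 of 11 positive and a median of 0.11, against 6 of 11 and 0.07 after quantile normalization. Rbl1, known as p107 and itself made under E2F, had 0.76 ± 0.31 SE (limma adjusted p = 0.517), E2f7, a repressor of the family, 0.49 ± 0.22 SE and E2f3, an activator, 0.39 ± 0.20 SE. Genes of the MuvB core, which joins p130 in resting cells to silence cell cycle genes, and its later partner Mybl2 had 4 of 6 positive and a median of 0.13, against 3 of 6 and -0.03 after quantile normalization. The median was 0.25 without PBS replicate 3 and 0.07 without PBS replicate 1. Lin52 had -0.56 ± 0.26 SE, Rbbp4 0.37 ± 0.22 SE and Lin9 0.49 ± 0.30 SE.

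Genes that activate CDKs or turn over cyclins had 10 of 11 positive and a median of 0.23 (6 of 11 and 0.05 after quantile normalization, and 0.10 without PBS replicate 3), and 2 of the 11 had each G-CSF value above each PBS value, against 3.37% of all genes. Cks1b, a small CDK subunit that helps to mark p27 for breakdown, had 0.60 ± 0.18 SE (limma adjusted p = 0.373), with 9.31, 9.55, 9.81 and 9.58 in the G-CSF arrays, against 8.91, 8.80, 8.84 and 9.30 in the PBS arrays. Its groups were apart, narrowly, and PBS replicate 3 was not apart from the others. Cdc25a, the phosphatase that switches on Cdk2, had 0.77 ± 0.33 SE, with 5.24 in PBS replicate 3 and 6.63 in each of the other PBS arrays, and Skp2, the ligase subunit that works with Cks1b, had 0.34 ± 0.21 SE. Among 6 CDK inhibitors 3 were positive, with a median of -0.02 (-0.12 after quantile normalization, 0.065 without PBS replicate 3 and -0.13 without PBS replicate 1), and Cdkn1a was not analysed here. The INK4 inhibitors of Cdk4 and Cdk6 pointed in both directions, with Cdkn2d at 0.85 ± 0.26 SE and Cdkn2c at -0.45 ± 0.21 SE (limma adjusted p = 0.387 and 0.551), and Cdkn1c, an inhibitor that marks resting stem cells, had -0.27 ± 0.22 SE. Cdkn2d was the 1 inhibitor of the 6 whose groups did not overlap, against 3.37% of all genes in its direction. It had 7.015 to 7.385 after G-CSF and 5.603 to 6.879 after PBS, with the lowest value in PBS replicate 3.

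**Figure D4:**
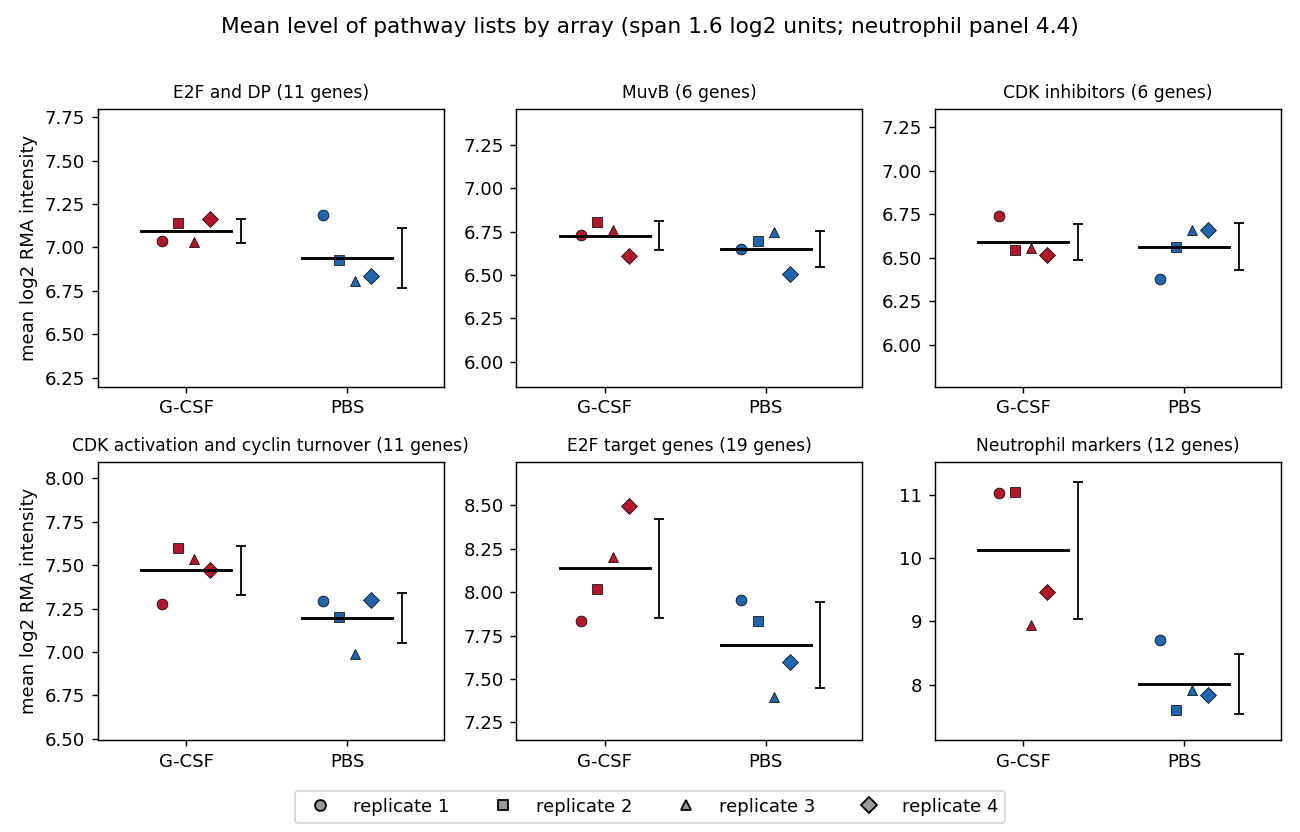
Mean log2 RMA intensity of 5 pathway lists and of neutrophil markers (vertical axes) in G-CSF arrays (left of each panel) and PBS arrays (right); marker shapes give the replicate number, lines the means and bars the SD of 4 arrays. E2F target genes ran from 7.83 to 8.50 after G-CSF and from 7.40 to 7.95 after PBS, and the neutrophil marker mean ran from 8.95 to 11.06 after G-CSF and from 7.59 to 8.70 after PBS.

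With the neutrophil marker mean of each array as a covariate, the log2 fold change was 0.48 ± 0.45 SE for Cdk6, 0.84 ± 0.78 SE for Cdk4, -0.33 ± 0.43 SE for Ccnd1, -0.42 ± 0.54 SE for Ccnd2 and 0.83 ± 0.61 SE for Ccne2. These 5 had the same sign as without the covariate, with wider errors, and Ccnd1 moved from -0.64 to -0.33. Ccnd3 was 0.69 ± 0.36 SE, against 0.32 without the covariate. The sign turned for Rb1 (-0.30), Rbl2 (0.25), Ccne1 (-0.16) and Cdk2 (0.02). With the covariate 0 of the 10 genes were at an unadjusted p under 0.05 (limma), against 856 of all 19938 genes. The covariate was 8.95 or more in every G-CSF array and 8.70 or less in every PBS array. Its part and that of the treatment cannot be told apart in this fit.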

How the data were processed

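Expression was measured in 4 G-CSF and 4 PBS samples on MoGene 1.0 ST arrays after NuGen Ovation amplification, per the labels' protocols. The authors deposited a linear intensity for each probe set and array. Per the submitters' processing notes the tool was RMA, whose version and options are not stated. Intensities ran from 2.15 to 16163, so they were taken as RMA output on a linear scale and turned to log2 here. Detection calls and scan dates were not used here, so batches could not be examined, and precision is limited by the number of arrays.

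The 21789 probe sets with a single gene symbol in the platform annotation were used, out of 35556. Per gene the one with the highest mean was kept, and no filter on dim genes was applied. Group differences over the 19938 genes came from limma 3.58.1 under R 4.3.3, using lmFit and eBayes, 2-sided, adjusting by Benjamini-Hochberg across all of them, with 0.05 as the threshold. Differences between related genes were tested with SciPy's exact permutation test. Scripts were tested on simulated data. The rule names all 10 genes and the 3 genes of each pathway list with the lowest p. The genes and lists were chosen with earlier results of these data known, and the E-box word after the promoters had been read. Words for CCAAT, CHR, GC box and STAT sites were searched too and are not reported further. Alternatives were the moderation, a replicate block, array weights, a dim filter, scaling, probe set choice, a pseudocount of 16, a neutrophil covariate, a threshold of 0.1 and each array left out.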

Additional observations from a re-analysis of the deposited data

How the results depend on the processing

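None of the 10 genes passed the adjusted threshold under any of 19 alternatives (0 of 189 values), nor at a threshold of 0.1. At an unadjusted p under 0.05 (limma) there were 1 to 4 of the 10 in every alternative but the neutrophil covariate, where there were 0. Of all 19938 genes, 1125 to 2185 were at that p in the other alternatives that tested all of them, and 856 with the covariate. With the dim filter 1101 of 9969 were. The number of genes called among all, 19 as reported, was 40 with array weights, 7 after quantile normalization, 52 at a threshold of 0.1, and 3 to 31 with each array left out in turn. It was 0 with all probe sets (2743 at an unadjusted p under 0.05) and 0 with the neutrophil covariate (856 at an unadjusted p under 0.05). The cause was not tested. The direction held in 178 of 189 values. The 11 others belonged to genes near 0. Rb1 was -0.019 with array weights, -0.14 after quantile normalization, -0.11 with that and PBS replicate 3 left out, -0.30 with the covariate, -0.10 without G-CSF replicate 2 and -0.03 without PBS replicate 3. Cdk2 was 0.0082 with array weights, 0.017 with the covariate and 0.0098 without G-CSF replicate 1, where its lowest value with an array left out was -0.080. With the covariate Ccne1 was -0.16 and Rbl2 0.25. The difference in change of Cdk4 from Cdk6 was -0.068 to 0.53 with each array left out. That alternative and the quantile normalization of the pairs, which left 0 of 8 pairs past the threshold, were chosen after seeing the data. A single pair at the smallest possible p could not have passed that threshold, with or without quantile normalization. Arrays of the same replicate number did not deviate together (correlations of -0.03, 0.06, 0.06 and 0.14), so the numbers were not taken as pairs. With the replicate block 23 genes and 0 of the 10 were called.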
